A study of Mus musculus with 8 samples.

Results

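Gene expression was compared between mesenchymal progenitors taken 3 days after muscle injury and those taken 2 days after it. Mesenchymal progenitors are stromal cells that lie between the muscle fibres, and they were sorted by flow cytometry. The source was the whole hindlimb muscle, and the mice were C57BL/6J. Muscle was injured with notexin, a toxin from snake venom that kills muscle fibres. The comparison uses 1 library at day 3 and 1 library at day 2, out of 8 libraries in all, the others being 1 each from quiescent muscle and from days 1, 4, 5, 7 and 10. Genes entered the comparison when their row of the deposited table spanned at least 200 bp and reached at least 5 FPKM (fragments per kilobase of transcript, scaled to sequencing depth) in the higher of both libraries, which 8413 of 23846 rows did.

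All mice, in both groups and in quiescent muscle, carried the genotype Hic1CreERT2/CreERT2;Rosa26LSLtdTomato/+. Both copies of Hic1 thus held a tamoxifen-inducible Cre, and a red fluorescent reporter marked cells, and descendants of cells, in which Hic1 was active when tamoxifen was given. The mice were 8 weeks old when they received 2.5 mg of tamoxifen a day for 5 days, and a washout period followed before injury. The promoter that drives Cre here is that of Hic1 itself, so the sorted cells are those of a Hic1 lineage and not of all stromal cells. The sources used here give neither the gate used for sorting nor whether a library pooled several mice.

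Mesenchymal progenitors of muscle leave quiescence soon after injury, divide for a short time, and supply signals, matrix and growth factors to the regenerating muscle stem cells. A dividing cell first loads the replicative helicase (the MCM proteins) on its DNA, then copies the DNA, and later builds a spindle and divides. These phases are served by groups of genes that rise and fall at different times, with replication genes under the E2F factors and mitotic genes under the DREAM and MuvB complexes. Macrophages enter injured muscle over the same days, take up debris, and release cytokines, among them interferons, to which neighbouring cells respond with a shared set of interferon-stimulated genes.

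With 1 library at each time, the variation between animals is unknown, so no test was made and the values describe these libraries. Differences are given as day 3 minus day 2 of log2(FPKM + 1), which understates the change of low genes, and a gene was called higher or lower at a difference of 1 or more, a 2-fold change. Called higher at day 3 were 345 genes (4.1% of those compared) and called lower were 306 (3.64%), together 7.74%. Counts of called members in the lists below are best read against these shares. A 4-fold difference was reached upwards by 57 genes (0.678%) and downwards by 11 (0.131%). The median over all genes compared was -0.10, with quartiles of -0.42 and 0.21, and 59.1% of genes lay below 0. Just inside the 2-fold threshold, at differences of up to 0.1 beyond it, lay 152 of the called genes, and 193 genes lay as close outside it.

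The split between directions moved with scaling. The values of all rows summed to 629728 FPKM at day 3 and 718618 FPKM at day 2. With the libraries brought to the same sum, 516 genes were called higher and 167 lower, so that the share of calls that were higher was 75.5%, against 53.0% as deposited. With median-ratio scaling the counts were 388 and 248 (61.0% higher). The median of all genes shifted by 0.19 and 0.06 under these scalings, so values below are best read against the median of -0.10. Depth, estimated from the low values of the table, was 10.66 M fragments at day 3 and 10.7 M fragments at day 2, and 12.14 M to 28.36 M fragments in the other libraries. At this depth a gene of 2000 bp at 5 FPKM rests on about 98.6 fragments at day 3, which alone gives its difference a 95% interval of 0.40 to each side on the log2 scale. Intervals given below are of this kind: they cover counting error only, not differences between animals, sorts or library preparations.

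**Figure D1:**
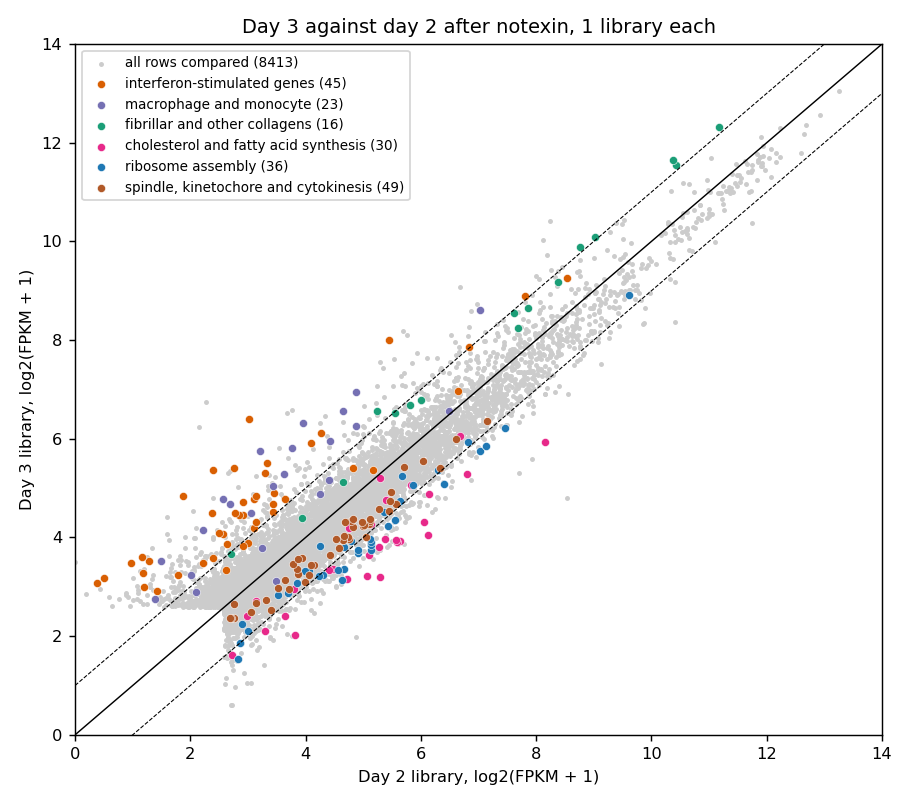
Each point is 1 gene, placed by log2(FPKM + 1) at day 2 (x axis) and at day 3 (y axis). Grey points are the 8413 genes compared, coloured points are members of 6 gene lists, the solid line marks equal values and the dashed lines a 2-fold difference. Interferon-stimulated, macrophage and collagen genes lie above the solid line with few exceptions, and cholesterol, ribosome assembly and mitotic genes below it.

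The identity of the sorted cells was checked first. Hic1, the gene whose lineage was marked, was at 36.6 FPKM at day 3 and 25.4 FPKM at day 2. Pdgfra, a receptor tyrosine kinase that defines these progenitors, was at 96.8 FPKM at day 3 and 122 FPKM at day 2. Ly6a, which encodes the surface antigen Sca-1, was at 1434 and 1483 FPKM at day 3 and day 2. The stem cell antigen Cd34 was at 323 FPKM at day 3 and 287.5 FPKM at day 2, so the defining genes of the label were abundant in both libraries. Of 18 progenitor identity genes, 6 were higher at day 3 and 0 lower, with a median difference of 0.56. The 6 were Fap, Lum, Col1a1, Col3a1, Col1a2 and Col6a1, that is, a fibroblast surface protease and genes of the matrix.

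Genes that prepare and carry out DNA replication fell in large part. Of 20 genes for replication licensing and the helicase that were compared, 9 were lower at day 3 and 0 higher, with a median difference of -0.96. All 20 lay below 0. Mcm5, a subunit of the helicase, was at 13.0 FPKM at day 3 and 41.6 FPKM at day 2, a ratio of 0.312 (95% counting interval 0.276 to 0.353). Mcm7, of the same ring, fell to 19.9 FPKM at day 3, against 53.0 FPKM at day 2. Mcm2, Mcm3, Mcm4 and Mcm6 were each called lower as well, with differences between -1.21 and -1.29, so that every subunit of the ring was lower. Cdt1 and Cdc6, which load the ring on DNA, both differed by -1.08, and Gins2, part of the active helicase, by -1.21. Timeless, a protein of the moving replication fork, was at 5.75 FPKM at day 3 and 6.40 FPKM at day 2. The ring was not at its peak on day 2: Mcm2 was at 1.32 FPKM in quiescent cells, 43.0 on day 1, 21.05 on day 2, 8.00 on day 3 and 2.97 on day 4. In bulk samples of this kind, fewer dividing cells and less of each transcript per dividing cell cannot be told apart.

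The genes of DNA synthesis and nucleotide supply followed. Of 31 compared, 14 were lower at day 3 and 0 higher, with a median of -0.98. Rrm2, the regulated subunit of the reductase that makes deoxynucleotides, fell to 22.01 FPKM at day 3, against 71.9 FPKM at day 2 (ratio 0.306, 95% counting interval 0.276 to 0.339). Dctpp1, which clears a modified deoxynucleotide, fell to 34.9 FPKM at day 3, against 115 FPKM at day 2. Pcna, the sliding clamp of the polymerases, fell to 108 FPKM at day 3, against 242 FPKM at day 2, and Uhrf1, which carries DNA methylation through replication, to 12.4 FPKM, against 38.3 FPKM. Tk1 and Tyms, which make thymidine nucleotides, stayed within 2-fold, Tk1 at 61.4 FPKM at day 3 and 109 FPKM at day 2. Members that stayed within 2-fold were thus still on the same side: all 31 differences lay below 0, the smallest being -0.44 for Rpa3. Replication-dependent histone transcripts, which are made in S phase and mostly carry no polyA tail, appear in the table at low values. 2 rows of Hist1h2ao, near-identical copies that share reads, were at 0.512 and 0.511 FPKM on day 3 and at 5.60 and 5.51 FPKM on day 2, and both rested on under 2 estimated fragments on day 3.

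Mitotic genes lay lower too, with medians nearer 0. Of 49 genes of the spindle, kinetochore and cytokinesis, 1 was called lower at day 3 and 0 higher, and of 23 cyclins, cyclin-dependent kinases and mitotic kinases, 1 was lower and 0 higher. The share of called members was 2.04% and 4.35%, near the 3.64% of all genes, so the calls alone do not set these lists apart. The medians, -0.65 and -0.70, were nevertheless below the -0.10 of all genes, and every compared member of both lists lay below 0. The called members were Pbk, a mitotic kinase, at 15.04 FPKM at day 3 and 32.2 FPKM at day 2, and E2f1, an activator of replication genes, at 8.45 and 20.6 FPKM. Mki67, which coats mitotic chromosomes and serves as the standard proliferation marker, was at 14.6 FPKM at day 3 and 26.1 FPKM at day 2 (ratio 0.561, 95% counting interval 0.527 to 0.597). Birc5, the survivin subunit of the chromosomal passenger complex, was at 80.8 FPKM at day 3 and 140 FPKM at day 2. Ccnb1, the mitotic cyclin, was at 19.7 FPKM at day 3 and 30.4 FPKM at day 2. Cdc20, an activator of the anaphase-promoting complex, was at 41.2 FPKM at day 3 and 79.7 FPKM at day 2, and Aurkb, the kinase of the passenger complex, at 14.8 and 30.25 FPKM, so both fell just short of the threshold. Cenpe, a kinesin of the kinetochore, was at 5.25 FPKM at day 3 and 5.75 FPKM at day 2.

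With values as deposited, every compared gene of these 4 lists thus had a lower value at day 3 than at day 2. The comparison and the lists were chosen with earlier results of these data known, so this describes the libraries and tests nothing. The 2-fold calls lay mostly in both replication lists. The smallest differences, -0.13 in the licensing and cyclin lists and -0.11 in the spindle list, do not keep their direction at the same FPKM sum. The medians at that sum were -0.79 (licensing), -0.80 (DNA synthesis), -0.53 (cyclins) and -0.48 (spindle). Levels at day 3 remained far from those of quiescent cells. The median log2(FPKM + 1) of the spindle list was 0.63 in quiescent cells, 2.06 on day 1, 4.66 on day 2, 3.96 on day 3 and 2.37 on day 4. That of the licensing list was 1.31, 4.58, 4.47, 3.63 and 2.26 in the same order, so it was already high at day 1, when the spindle list was low. Mki67 was at 0.451 FPKM in quiescent cells, 1.89 on day 1, 26.1 on day 2, 14.6 on day 3, 4.69 on day 4 and 3.52 on day 5.

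For the mitotic genes, the sequence before the start site is shown because such genes share short elements there. The 3 members with the largest fall that hold both elements are printed below, as 150 bases on the coding strand up to the base before the start, from RefSeq on GRCm38.p6 (mm10). They are Cdc20 at chr4:118437344-118437493 (minus strand), Cdk1 at chr10:69352913-69353062 (minus strand) and Kif22 at chr7:127042421-127042570 (minus strand). Capitals mark CCAAT and TTTGAA, the core of the cell cycle genes homology region, on either strand (ATTGG and TTCAAA on the other).
Cdc20: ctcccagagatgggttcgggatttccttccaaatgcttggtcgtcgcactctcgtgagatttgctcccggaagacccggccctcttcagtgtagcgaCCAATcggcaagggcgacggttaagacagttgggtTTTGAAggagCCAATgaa
Cdk1: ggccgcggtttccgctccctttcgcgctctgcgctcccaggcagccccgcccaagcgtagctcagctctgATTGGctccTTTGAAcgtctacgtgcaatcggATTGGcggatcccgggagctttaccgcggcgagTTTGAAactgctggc
Kif22: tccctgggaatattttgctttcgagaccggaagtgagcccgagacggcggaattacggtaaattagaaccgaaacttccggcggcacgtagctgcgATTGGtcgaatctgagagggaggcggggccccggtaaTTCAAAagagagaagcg
Over 250 bases before the start, TTTGAA was found in 19 of 42 spindle genes with a promoter in the RefSeq table (45.2%), against 18.3% of all 27025 genes, and CCAAT in 27 of 42 (64.3%), against 37.5%. Among the cyclins and kinases the counts were 3 of 18 for TTTGAA (16.7%) and 13 of 18 for CCAAT (72.2%). TTTNGCGC, a core of E2F sites that contains neither of these, was found in 2 of 14 licensing genes (14.3%), in 4 of 28 DNA synthesis genes (14.3%), in 5 of 42 spindle genes (11.9%) and in 1 of 18 cyclins and kinases (5.56%), against 1.31% of all genes. It was not particular to lists that lay lower, since 3 of 16 promoters of the MHC class I list held it (18.8%). These are matches of letters and show no binding.

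Regulators of the decision to divide were mixed. Of 16 D-type cyclins, inhibitors and pocket proteins, 2 were higher and 1 lower at day 3, with a median of -0.25. These shares, 12.5% and 6.25%, against 4.1% and 3.64% of all genes, rest on few genes. Ccnd1, the D-type cyclin that links growth signals to the cycle, fell to 14.6 FPKM at day 3, against 33.7 FPKM at day 2 (ratio 0.432, 95% counting interval 0.390 to 0.477), and was at 12.7 FPKM in quiescent cells. Ccng2, a cyclin linked to cell cycle exit, rose to 17.6 FPKM at day 3, against 6.05 FPKM at day 2. Cdkn1c, the inhibitor p57, rose to 23.6 FPKM on day 3, against 9.09 FPKM on day 2, and went on to 48.5 FPKM on day 4. Cdkn1b, the inhibitor p27, was at 47.5 FPKM at day 3 and 24.9 FPKM at day 2, just under the threshold. Cdkn1a, the inhibitor p21, did not share this course, at 20.9 FPKM at day 3, 27.9 FPKM at day 2 and 120 FPKM in quiescent cells.

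**Figure D2:**
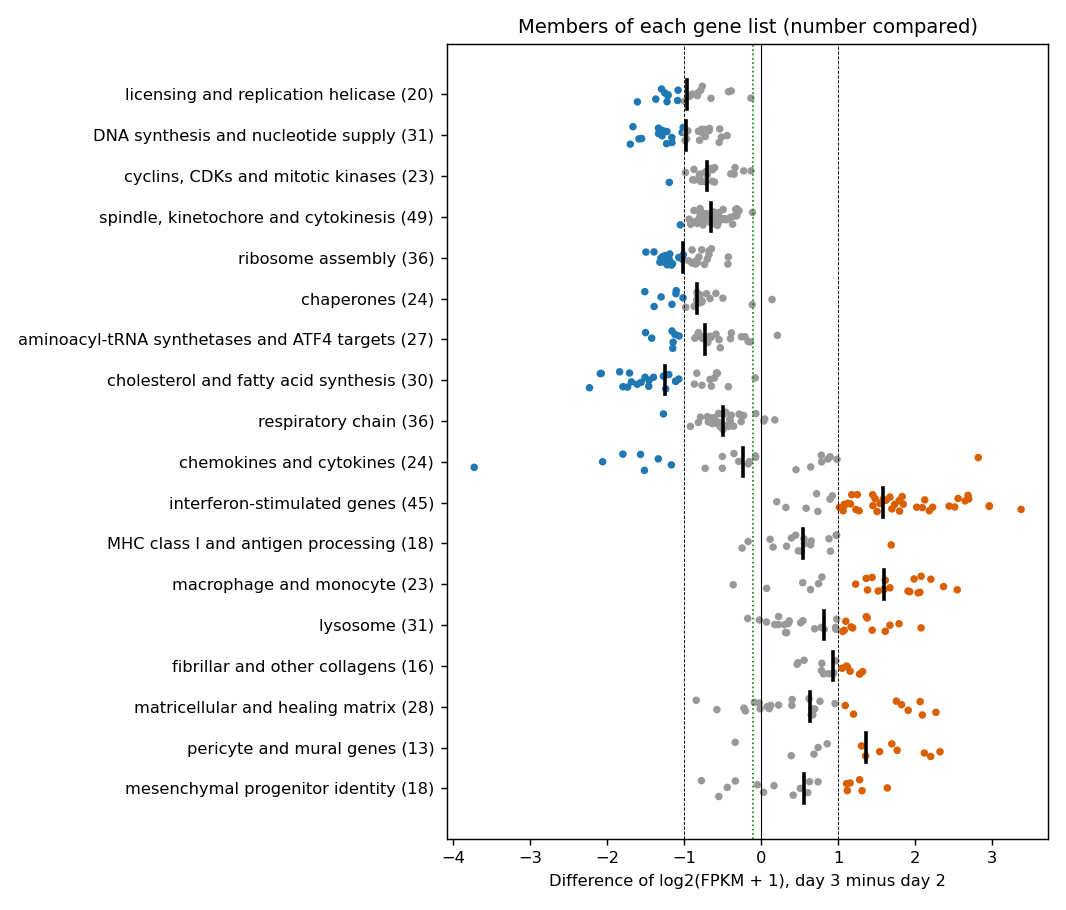
Each point is 1 compared gene of the list named at the left, with the number compared in parentheses, placed by its difference of log2(FPKM + 1), day 3 minus day 2. Orange points are 2-fold higher, blue points 2-fold lower and grey points between; thick bars are list medians, dashed lines the 2-fold thresholds and the green dotted line the median of all genes (-0.10). Replication, ribosome assembly and cholesterol lists sit left of the dotted line and interferon, macrophage and collagen lists right of it.

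Many genes of cell growth fell. Of 36 ribosome assembly genes, 19 were lower at day 3 and 0 higher, with a median of -1.01. Ncl, the abundant nucleolar protein nucleolin, fell to 56.9 FPKM at day 3, against 139 FPKM at day 2 (ratio 0.411, 95% counting interval 0.397 to 0.425). Fbl, which methylates ribosomal RNA, fell to 73.3 FPKM at day 3, against 174 FPKM at day 2, and Rrp9 and Nolc1, which serve small nucleolar particles, differed by -1.50 and -1.39. Npm1, another nucleolar protein, was at 482 FPKM at day 3 and 783 FPKM at day 2, within 2-fold. The median of the list was highest on day 1: the median log2(FPKM + 1) was 3.48 in quiescent cells, 5.82 on day 1, 4.91 on day 2, 3.82 on day 3 and 3.58 on day 4. The summed FPKM of the list was 1168 on day 3, 2251 on day 2 and 588 in quiescent cells.

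The transcription factor Myc, a driver of ribosome production, was at 47.4 FPKM at day 3 and 81.45 FPKM at day 2, within 2-fold. Of 11 genes of its network, 2 were lower, Srm (spermidine synthase) and Cad (the first enzyme of pyrimidine synthesis), 0 were higher, and the median was -0.01. The share called lower was 18.2%, against 3.64% of all genes, and rests on few genes. Srm fell to 63.3 FPKM at day 3, against 151 FPKM at day 2. The partner Max was at 42.7 FPKM at day 3 and 41.2 FPKM at day 2. The E-box CACGTG, which Myc can bind, was found in 2 of 31 ribosome assembly promoters (6.45%), against 6.86% of all genes.

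Some genes of protein synthesis and folding fell. Of 27 aminoacyl-tRNA synthetases and targets of the amino acid response, 7 were lower and 0 higher, with a median of -0.72. The amino acid carrier Slc7a5 fell to 9.74 FPKM at day 3, against 29.4 FPKM at day 2, and the mitochondrial folate enzyme Mthfd2 to 10.9 FPKM, against 30.9 FPKM. The other 5 called were Asns, Phgdh, Psat1, Shmt2 and Mars, of which the first 4 make asparagine, serine or glycine. Of 24 chaperones, 7 were lower and 0 higher, with a median of -0.83. Fkbp4 and Stip1, helpers of the chaperone HSP90, fell to 31.3 and 34.3 FPKM at day 3, against 91.0 and 91.5 FPKM at day 2. The heat-induced Dnajb1 was at 75.1 FPKM at day 3 and 67.9 FPKM at day 2. In the secretory pathway, 3 of 34 genes were lower (Sdf2l1, Creld2 and Hyou1, all induced by misfolded protein in the endoplasmic reticulum) and 0 higher, with a median of -0.27. The share called lower was 8.82%, against 3.64% of all genes, and rests on few genes. The list was mixed, with 10 of 34 genes above 0, among them Kdelr3 at 161 FPKM at day 3 and 125 FPKM at day 2.

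In energy metabolism few genes were called. Of 21 glycolysis genes, 2 were lower (9.52%, against 3.64% of all genes) and 0 higher, with a median of -0.61. Pkm, the last kinase of glycolysis, fell to 261 FPKM at day 3, against 613 FPKM at day 2, and Ldha, which makes lactate, to 286.5 FPKM, against 620 FPKM. Of the 21 genes, 18 lay below 0, and Vegfa, Bnip3 and Ndrg1 lay above it but within 2-fold. Of 36 respiratory chain genes, 1 was lower and 0 higher, with a median of -0.50. The share called lower, 2.78%, was under the background of 3.64%. It was Cycs (cytochrome c), at 21.0 FPKM at day 3 and 52.0 FPKM at day 2.

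Of the 32 gene lists, the lowest median was that of cholesterol and fatty acid synthesis. Sterol synthesis runs from acetyl-CoA through mevalonate and squalene to cholesterol, and its enzymes are induced together by the factor SREBP2 when sterols are scarce. Of 30 genes, 20 were lower at day 3 and 0 higher, with a median of -1.25. Fdps, which makes farnesyl diphosphate, fell to 60.0 FPKM at day 3, against 285 FPKM at day 2 (ratio 0.211, 95% counting interval 0.194 to 0.228). Idi1, the isomerase before Fdps, fell to 15.5 FPKM at day 3, against 68.6 FPKM at day 2. Hmgcs1, an early enzyme of the pathway, fell to 38.1 FPKM at day 3, against 110.0 FPKM at day 2. Mvk, Mvd, Fdft1, Sqle, Lss and Cyp51, which act later, were called lower as well. Pmvk of the mevalonate branch, the late enzymes Dhcr7, Ebp and Tm7sf2 and the factors Srebf1 and Srebf2 themselves lay below 0 but within 2-fold. Fatty acid synthase, Fasn, fell to 7.92 FPKM at day 3, against 25.2 FPKM at day 2, whereas the desaturase Scd1 was at 36.1 and 38.1 FPKM.

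The course of this list had its peak at day 2. Fdps was at 29.3 FPKM in quiescent cells, 125 on day 1, 285 on day 2, 60.0 on day 3, 30.0 on day 4 and 28.9 on day 5, so the day 3 library lay between the peak and the quiescent level. The list median of log2(FPKM + 1) was 3.84 in quiescent cells, 4.62 on day 1, 5.28 on day 2, 3.92 on day 3 and 3.38 on day 4. Promoters of the 3 members with the largest fall that hold a CCAAT box in the 150 bases before the start are shown, as above, because that element stood out in this list. Idi1 is at chr13:8885456-8885605 (plus strand), Mvd at chr8:122443423-122443572 (minus strand) and Sc4mol, now named Msmo1, at chr8:64733579-64733728 (minus strand), and capitals mark CCAAT on either strand.
Idi1: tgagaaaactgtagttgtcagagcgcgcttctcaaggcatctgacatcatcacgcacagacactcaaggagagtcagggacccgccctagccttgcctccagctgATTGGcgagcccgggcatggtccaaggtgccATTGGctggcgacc
Mvd: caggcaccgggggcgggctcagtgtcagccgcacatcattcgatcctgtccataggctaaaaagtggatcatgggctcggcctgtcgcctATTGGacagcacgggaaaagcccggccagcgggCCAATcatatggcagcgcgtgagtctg
Sc4mol: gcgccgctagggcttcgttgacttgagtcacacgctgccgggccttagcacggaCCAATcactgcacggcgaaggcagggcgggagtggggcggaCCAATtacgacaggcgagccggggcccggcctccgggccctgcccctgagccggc
CCAAT was found within 250 bases in 18 of 21 promoters of the list (85.7%), against 37.5% of all genes, and CACGTG in 4 of 21 (19.05%), against 6.86%. The letters TCACNCCAC, a classical sterol regulatory element, were found in 1 of 21 (4.76%), against 1.22% of all genes. A 5-letter match is frequent in any sequence, and no binding was measured here.

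**Figure D3:**
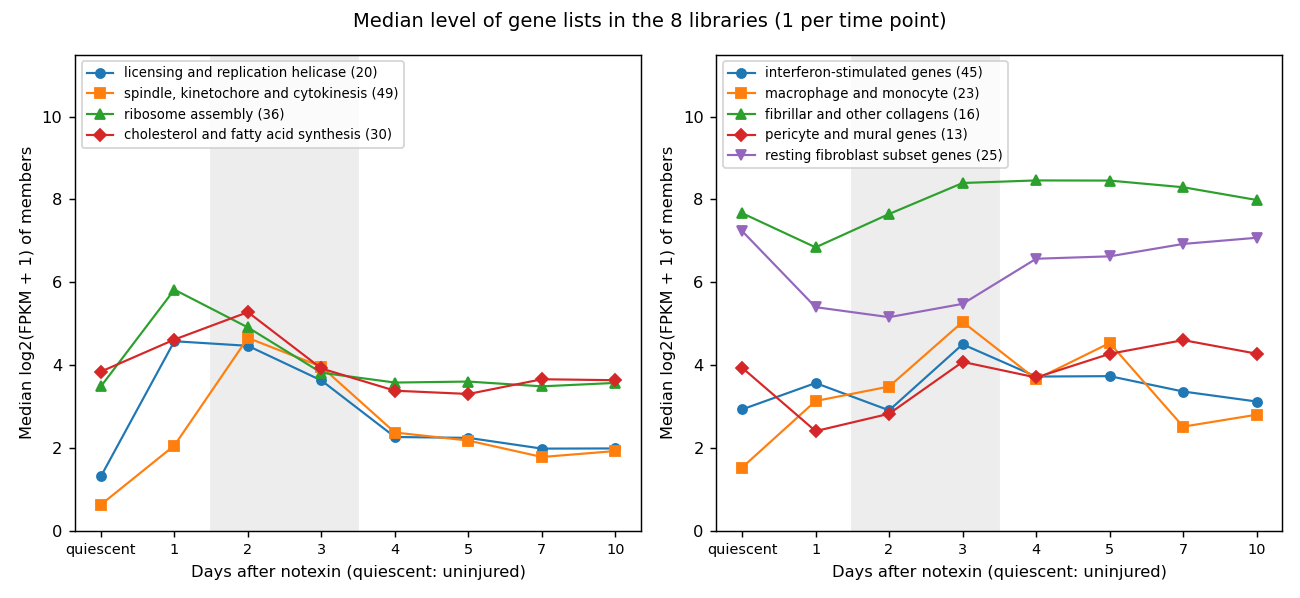
Lines join the median log2(FPKM + 1) of each list (y axis, number of genes in parentheses) over the 8 libraries in time order (x axis, 1 library per time point); the grey band marks days 2 and 3. On the left, replication licensing and ribosome assembly are already high at day 1 and mitotic and cholesterol genes peak at day 2. On the right, interferon and macrophage lists have their highest value at day 3, and collagens rise between days 2 and 3 and then level off.

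Some inflammatory signals fell. Of 24 chemokines and cytokines, 7 were lower at day 3 and 1 higher, with a median of -0.23. The share called lower was 29.2%, against 3.64% of all genes. The share called higher, 4.17%, was near the 4.1% of all genes. Cxcl5, which attracts neutrophils, fell to 27.0 FPKM at day 3, against 369 FPKM at day 2 (ratio 0.073, 95% counting interval 0.066 to 0.081), the largest decrease of any gene compared. Ccl2, which attracts monocytes, fell to 327 FPKM at day 3, against 1364 FPKM at day 2. Cxcl1 and Cxcl2, further neutrophil attractants, fell to 321 and 16.7 FPKM at day 3, against 919 and 43.7 FPKM at day 2. Both Ccl2 and Cxcl1 had been higher still at day 1, at 2780 and 3840 FPKM, so their fall was under way before day 2. Csf1, the growth factor of macrophages, fell to 129.5 FPKM at day 3, against 291.5 FPKM at day 2. The member called higher was Cxcl9, a lymphocyte attractant induced by interferon gamma, at 20.25 FPKM at day 3 and 2.01 FPKM at day 2. Its relative Cxcl10 was at 103.5 FPKM at day 3 and 51.7 FPKM at day 2, a difference of 0.99. Cxcl12, which retains stem cells in their niche, was at 787.5 FPKM at day 3 and 431 FPKM at day 2.

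Among 21 genes of the NF-kB and acute phase list, 3 were lower and 1 higher, with a median of -0.31. The share called lower, 14.3%, against 3.64% of all genes, rests on few genes. The share called higher, 4.76%, was near the 4.1% of all genes. Ptx3, a soluble pattern receptor, fell to 183 FPKM at day 3, against 555 FPKM at day 2. Hp, which encodes the haemoglobin-binding haptoglobin, rose to 74.5 FPKM at day 3, against 3.45 FPKM at day 2 (ratio 21.6, 95% counting interval 16.0 to 29.9). Hp was at 0.493 FPKM in quiescent cells, 3.02 on day 1, 6.46 on day 4 and 35.6 on day 5, so the high values stood at days 3 and 5 and not on day 4. None of 20 immediate early genes was called in either direction, and their median was -0.15. Fos, for example, was at 652 FPKM at day 3 and 694 FPKM at day 2.

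Interferon-stimulated genes rose as a body. Of 45 compared, 38 were higher at day 3 and 0 lower, 84.4% against the 4.1% of all genes, and the median difference was 1.59. All 45 lay above 0. Ifit3, an antiviral protein of the IFIT family, was at 83.6 FPKM at day 3 and 7.14 FPKM at day 2 (ratio 11.7, 95% counting interval 9.73 to 14.2). Isg15, a ubiquitin-like protein joined to other proteins under interferon, rose to 257 FPKM at day 3, against 42.7 FPKM at day 2. Ifit1, a sensor of foreign RNA caps, rose to 40.15 FPKM at day 3, against 4.27 FPKM at day 2. The effector Rsad2 (viperin) rose to 10.2 FPKM at day 3, against 0.956 FPKM at day 2. The rise took in genes better known for the response to interferon gamma, with the GTPases Iigp1 (41.4 FPKM at day 3, 5.75 at day 2) and Igtp (27.6 and 7.81 FPKM), beside those of type I interferon. Factors of the pathway rose too, Stat2 to 24.75 FPKM at day 3, against 9.82 FPKM at day 2, and Irf9 to 21.75 FPKM, against 9.86 FPKM. Irf7, which amplifies the type I response, rose to 68.5 FPKM at day 3, against 18.3 FPKM at day 2. Irf1 (40.5 and 35.01 FPKM) and Ifi204 (125 and 99.5 FPKM) were among the 7 that stayed within 2-fold.

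Day 3 was also the highest point of this list in the series. Isg15 was at 13.7 FPKM in quiescent cells, 157 on day 1, 42.7 on day 2, 257 on day 3, 79.7 on day 4 and 109 on day 5. The median log2(FPKM + 1) of the list was 2.93 in quiescent cells, 3.57 on day 1, 2.91 on day 2, 4.502 on day 3, 3.72 on day 4 and 3.73 on day 5, so the list was higher on day 1 than on day 2, when it stood at the quiescent level. The promoters of Ifit3 (chr19:34583379-34583528, plus strand), Ifit1 (chr19:34640739-34640888, plus strand) and Isg15 (chr4:156200819-156200968, minus strand) are shown because they hold the element of this response. Capitals mark the core of the interferon-stimulated response element, that is GAAA, any 2 bases and GAAA again, on either strand, and in Isg15 3 overlapping copies run together.
Ifit3: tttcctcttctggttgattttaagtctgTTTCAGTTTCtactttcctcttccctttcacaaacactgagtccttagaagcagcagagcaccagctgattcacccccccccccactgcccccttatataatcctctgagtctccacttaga
Ifit1: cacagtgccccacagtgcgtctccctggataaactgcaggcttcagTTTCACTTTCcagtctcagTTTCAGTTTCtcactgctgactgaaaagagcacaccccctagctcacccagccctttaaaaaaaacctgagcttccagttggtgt
Isg15: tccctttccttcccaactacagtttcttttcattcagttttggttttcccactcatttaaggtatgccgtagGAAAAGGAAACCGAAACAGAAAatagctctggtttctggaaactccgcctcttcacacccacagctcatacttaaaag
The copies begin 122 bases before the start in Ifit3, 104 and 85 bases before it in Ifit1 and from 78 bases before it in Isg15. The core was found within 250 bases in 15 of 32 promoters of the list (46.9%), against 3.46% of all genes, in 3 of 16 of the MHC class I list (18.8%) and in 2 of 15 of the macrophage list (13.3%). It was found in 1 of 21 cholesterol promoters (4.76%) and in 0 of 12 collagen promoters.

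In antigen presentation few genes were called. Of 18 genes of MHC class I and antigen processing, 1 was higher and 0 lower, with a median of 0.54, and the share called, 5.56%, was near the background of 4.1%. The called one was H2-T23, a nonclassical class I molecule, at 79.9 FPKM at day 3 and 24.05 FPKM at day 2. B2m, the light chain of class I molecules, was at 1318 FPKM at day 3 and 669 FPKM at day 2, and the peptide carrier Tap1 at 24.9 and 12.1 FPKM, both just under the threshold. Class I genes are near-identical copies of each other, and the sources used here do not say how reads that map to several places were counted.

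Markers of macrophages were high in the same library. Of 23 macrophage and monocyte markers compared out of 29, 17 were higher at day 3 and 0 lower, with a median of 1.60. The 29 markers summed to 1316 FPKM on day 3 and 469 FPKM on day 2, and to 174 in quiescent cells, 373 on day 1, 372 on day 4, 1044 on day 5, 259 on day 7 and 255 on day 10. None of the 29 was at 0 in either library. Ly6c2, a large part of the sum in quiescent cells, changed little, at 84.9 FPKM there, 88.7 on day 2 and 93.3 on day 3. Cd14, the only compared marker with a difference below 0, was at 7.70 FPKM at day 3 and 10.2 FPKM at day 2. Lyz2, the lysozyme of macrophages, rose to 391 FPKM at day 3, against 129 FPKM at day 2. The complement genes C1qa, C1qb and C1qc, which macrophages make, rose to 55.4, 79.3 and 53.1 FPKM at day 3, against 12.5, 14.5 and 8.25 FPKM at day 2. Ptprc, the pan-leukocyte antigen CD45, was low throughout, at 2.31 FPKM at day 3 and 0.741 FPKM at day 2. Csf1r, the receptor of macrophage growth factor, was at 8.48 FPKM at day 3 and 3.04 FPKM at day 2, and Emr1, a surface receptor of macrophages, at 5.71 and 1.60 FPKM.

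The interferon and macrophage lists both had their highest median on day 3. On day 4 and day 5 the macrophage median of log2(FPKM + 1) was 3.66 and 4.53, and the interferon median was 3.72 and 3.73. The summed FPKM of the interferon list was 1962 on day 4 and 2297 on day 5. The part of macrophage RNA in the rise of the interferon, complement and lysosome genes was not tested. Of 31 lysosome genes, 12 were higher and 0 lower at day 3, with a median of 0.82. The largest were Ctss, a protease of antigen-presenting cells, at 122 FPKM at day 3 and 28.1 FPKM at day 2, and Ctsc at 28.6 and 7.54 FPKM. The list shares Ctss, Cd68, Laptm5 and Gpnmb with the macrophage markers. Ctsk, a collagen-cleaving cathepsin that fibroblasts make as well, was at 249 FPKM at day 3 and 94.97 FPKM at day 2. Of 15 complement genes, 6 were higher (40%, against 4.1% of all genes) and 0 lower, with a median of 0.65. Beside the 3 C1q genes they included the protease C1s and its inhibitor Serping1, which stromal cells express.

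Defining markers of other cell types were mostly low. Neutrophil genes moved the other way, S100a9 to 1.06 FPKM at day 3, against 7.25 FPKM at day 2, and S100a8 to 4.95 FPKM, against 12.3 FPKM, and no other of the 12 markers reached 5 FPKM. None of 16 lymphocyte markers reached 5 FPKM, and 7 of them were at the floor of the table (0.001 FPKM) at day 3 and 10 at day 2. Of the defining endothelial genes, Pecam1 was at 0.617 FPKM at day 3 and 0.495 FPKM at day 2 and Cdh5 at 0.5996 and 0.405 FPKM. The endothelial markers summed to 870.0 FPKM at day 3 and 873 FPKM at day 2, most of it from Ly6c1 at 761 and 769 FPKM. Of 6 endothelial genes compared, 1 was higher (Fabp4, also an adipocyte gene) and 1 lower (Aqp1). Of 4 Schwann cell genes compared, 0 were called. Among satellite cell and myoblast markers, 2 of 4 compared were higher, namely Myod1, the determination factor of myoblasts, at 5.11 FPKM at day 3 and 0.551 FPKM at day 2, and Itga7 at 6.58 and 1.68 FPKM. Myog, of differentiating myoblasts, was at 3.40 FPKM at day 3 and 0.072 FPKM at day 2, below the 5 FPKM needed for comparison. Of 6 muscle fibre genes compared, 2 were higher and 0 lower, and Acta1 and Mylpf rose to 6.53 and 8.81 FPKM at day 3, against 1.88 and 2.56 FPKM at day 2. The summed satellite cell markers, most of it Vcam1 and Des, were at 114 FPKM at day 3 and 67.5 FPKM at day 2, and the muscle fibre markers, which count Des as well, at 110.3 and 86.1 FPKM. Tpm2, the second most abundant muscle fibre marker at day 3, was at 31.7 FPKM at day 3 and 41.96 FPKM at day 2. The part of these cells in other results was not tested. Of the haemoglobin genes, Beta-s was at 41.8 FPKM at day 3 and 28.4 FPKM at day 2, and Hba-a2 and Hbb-b2 were between 17.5 and 26.6 FPKM at day 3 and between 14.6 and 28.7 FPKM at day 2, while 2 rows of the near-identical Hba-a1, which share reads and are uncertain, were called higher.

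Many matrix genes rose. Of 16 collagens, 6 were higher at day 3 and 0 lower, with a median of 0.94, and all 16 lay above 0. Col1a1, the main fibrillar chain, rose to 3205 FPKM at day 3, against 1319 FPKM at day 2 (ratio 2.43, 95% counting interval 2.41 to 2.45). Col3a1, of young repair tissue, rose to 5139 FPKM at day 3, against 2304 FPKM at day 2, and was the most abundant collagen of the list in both libraries. Col15a1, a collagen next to basement membranes, rose to 93.0 FPKM at day 3, against 36.6 FPKM at day 2. Col6a1, Col6a2 and Col1a2 made up the 6. With both libraries at the same FPKM sum, 12 of the 16 were called higher. Col1a1 was at 1174 FPKM in quiescent cells, 628 on day 1, 1319 on day 2, 3205 on day 3, 4894 on day 4 and 4756 on day 5, so day 3 lay on the ascent. Enzymes that modify and cross-link collagen were seldom called. Of 26, 0 were higher and 1 (Loxl4) lower (3.85%, near the 3.64% of all genes), with a median of 0.29. The chaperone of procollagen Serpinh1, for example, was at 1556 FPKM at day 3 and 1566 FPKM at day 2.

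Matricellular proteins, which sit in the matrix and signal to cells, rose in part. Of 28 compared, 8 were higher and 0 lower, with a median of 0.64. Postn (periostin) rose to 1048 FPKM at day 3, against 278 FPKM at day 2 (ratio 3.77, 95% counting interval 3.69 to 3.86). Cthrc1, a secreted protein of activated fibroblasts, rose to 172 FPKM at day 3, against 39.6 FPKM at day 2, and Sparcl1, a relative of SPARC, to 188 FPKM, against 38.2 FPKM. The elastic fibre proteins Mfap2 and Mfap4 rose to 133.5 and 78.9 FPKM at day 3, against 36.95 and 18.1 FPKM at day 2. Spp1 (osteopontin), at 206 FPKM at day 3 and 96.1 FPKM at day 2, is made by macrophages as well. Tnc (48.5 and 44.3 FPKM), Vcan (91.4 and 86.4 FPKM) and Thbs2 (103 and 109 FPKM) were within 2-fold. Of 22 proteoglycans and glycoproteins, 4 were higher (Lum, Fmod, Fbln5 and Ogn) and 2 lower (Prg4 and Has1), with a median of 0.63. Shares of 18.2% and 9.09%, against 4.1% and 3.64% of all genes, rest on few genes here. Lum (lumican), which spaces collagen fibrils, rose to 630 FPKM at day 3, against 253 FPKM at day 2. Prg4, the lubricant lubricin, fell to 119 FPKM at day 3, against 285 FPKM at day 2. In the basement membrane list, 1 of 11 genes was higher, the nidogen Nid2 at 43.7 FPKM at day 3 and 18.7 FPKM at day 2. That share, 9.09%, against 4.1% of all genes, rests on 1 gene.

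Proteases and their inhibitors moved in both directions. Of 20 compared, 4 were higher (20%) and 2 lower (10%), with a median of 0.37. Against 4.1% and 3.64% of all genes, these shares rest on few genes. The membrane-bound collagenase Mmp14 rose to 271 FPKM at day 3, against 112 FPKM at day 2, and Mmp11, Mmp23 and the inhibitor Serpine2 rose as well. Timp1, an inhibitor of matrix metalloproteases, fell to 605 FPKM at day 3, against 1277 FPKM at day 2. Timp2 did not follow Timp1, at 249 FPKM at day 3 and 172 FPKM at day 2. Of 25 contractile and cytoskeletal genes, 1 was higher (Myl9) and 2 lower (the tubulins Tuba1b and Tubb6), with a median of -0.39, and on so few genes the shares of 4.00% and 8.00% are not set apart from the 4.1% and 3.64% of all genes. Acta2, the smooth muscle actin used to mark myofibroblasts, was at 83.1 FPKM at day 3 and 58.7 FPKM at day 2, within 2-fold.

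Many pericyte and mural genes rose. Of 13 compared, 8 were higher at day 3 and 0 lower, with a median of 1.36. Heyl, a target of Notch, rose to 14.4 FPKM at day 3, against 2.08 FPKM at day 2 (ratio 6.94, 95% counting interval 5.60 to 8.67). Vtn (vitronectin) rose to 31.6 FPKM at day 3, against 6.08 FPKM at day 2, and Ndufa4l2 to 86.7 FPKM, against 19.1 FPKM. Notch3, the Notch receptor of mural cells, was at 11.3 FPKM at day 3 and 3.98 FPKM at day 2, and Rgs5 at 7.03 and 1.47 FPKM. Vtn and Rgs5 were higher still in quiescent cells, at 54.2 and 35.3 FPKM, whereas Heyl was at 9.49 FPKM there. Cspg4 (NG2), a defining pericyte gene, was at 5.08 FPKM at day 3 and 6.67 FPKM at day 2. Ednra, a receptor for endothelin, and the paired guanylate cyclase subunits Gucy1a3 and Gucy1b3, which belong to no list used here, were each 4-fold higher, Ednra at 15.8 FPKM at day 3 and 2.02 FPKM at day 2. A larger share of mural cells among the sorted cells and more RNA of these genes per cell cannot be told apart.

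Some genes of resting fibroblasts rose. Of 25, 4 were higher (Bmp5, G0s2, Lum and Col15a1) and 0 lower, with a median of 0.29. The share called higher was 16%, against 4.1% of all genes. Pi16, a marker of adventitial fibroblasts, was at 299 FPKM on day 3 and 227 FPKM on day 2, then at 1429 FPKM on day 4. Inmt was at 12.0 FPKM on day 3, 12.6 FPKM on day 2 and 93.9 FPKM on day 4. The median log2(FPKM + 1) of the list was 7.24 in quiescent cells, 5.16 on day 2, 5.48 on day 3 and 6.57 on day 4, so the greater step lay after day 3. Among 10 tendon genes 4 were higher (40%), Comp, Fibin, Cilp and Fmod. Comp was at 19.75 FPKM at day 3 and 5.34 FPKM at day 2, while the tenocyte factor Scx stayed under 5 FPKM (1.70 and 0.593 FPKM). Of 12 adipogenic genes, 5 were higher (41.7%), Apoe, Lpl, Cd36, Fabp4 and Cebpa. Both shares, against 4.1% of all genes, rest on few genes. Apoe rose to 536 FPKM on day 3, against 102 FPKM on day 2, and was at 170 FPKM on day 4 and 535 FPKM on day 5. Lpl was at 108 FPKM in quiescent cells, 44.7 on day 2, 133 on day 3, 74.7 on day 4 and 91.5 on day 5. Macrophages express Apoe, Cd36 and Lpl too, and their part in these values was not tested.

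Growth factors and their modulators included 6 higher genes among 28 (21.4%, against 4.1% of all genes) and 0 lower, with a median of 0.58. Sfrp1, a secreted inhibitor of Wnt, rose to 39.9 FPKM at day 3, against 5.46 FPKM at day 2 (ratio 7.31, 95% counting interval 6.39 to 8.38). The insulin-like growth factors Igf1 and Igf2 rose to 21.6 and 8.88 FPKM at day 3, against 9.05 and 2.15 FPKM at day 2, together with the binding protein Igfbp4. Tgfb3 rose to 41.6 FPKM at day 3, against 13.7 FPKM at day 2, while Tgfb1 was at 27.7 and 21.9 FPKM. Follistatin (Fst), which frees muscle growth from myostatin, was at 47.6 FPKM at day 3 and 57.3 FPKM at day 2. Bmp6 was at 2.23 FPKM at day 3 and 5.46 FPKM at day 2 and was not called, its difference of -0.998 falling just short of the threshold.

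**Figure D4:**
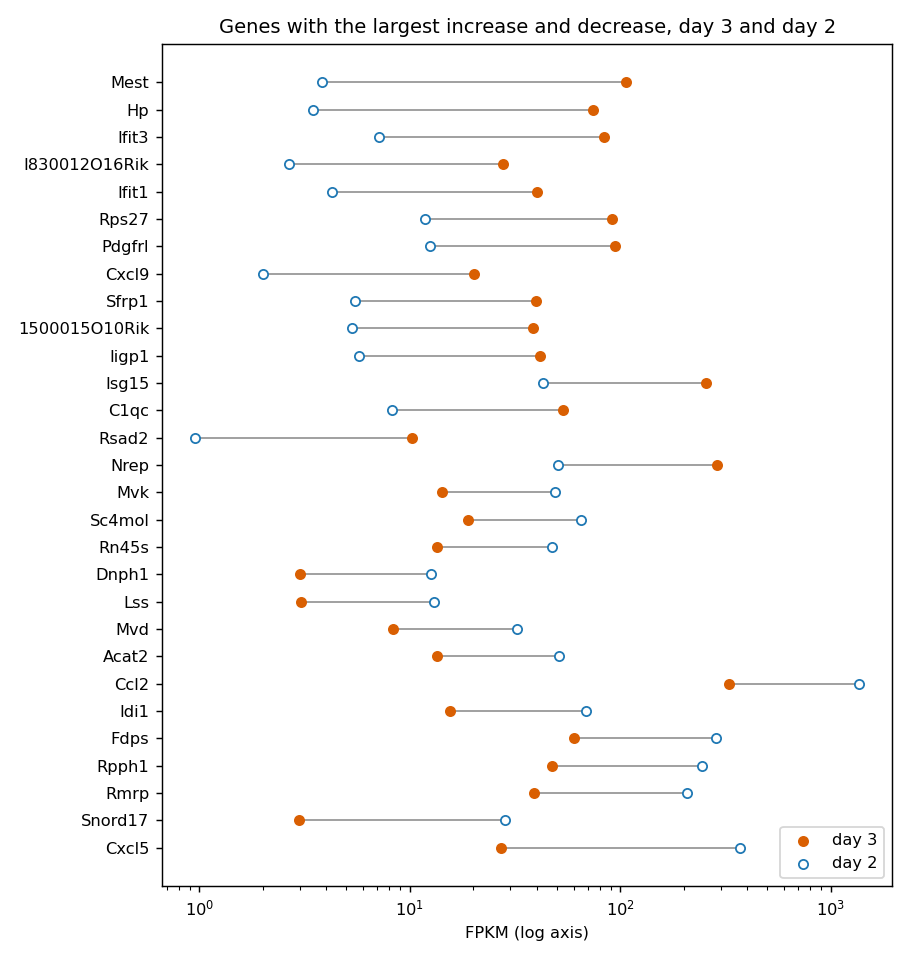
Genes with the largest increase (top, from Mest to Nrep) and with the largest decrease (from Mvk down to Cxcl5) among genes at 10 FPKM or more in the higher library. Filled orange points are day 3 and open blue points day 2, on a log axis of FPKM, joined by a line for each gene; not every gene of the rule is drawn. Mest differs the most upwards, at 107 and 3.82 FPKM, and Cxcl5 the most downwards.

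The largest increase of all was that of Mest, an imprinted gene expressed from the paternal copy, which rose to 107 FPKM at day 3, against 3.82 FPKM at day 2 (ratio 28.0, 95% counting interval 22.9 to 34.6). Mest was at 8.11 FPKM in quiescent cells, 1.60 on day 1, 52.3 on day 4 and 195 on day 5. After Mest and Hp came Ifit3, I830012O16Rik (an older name of Ifit3b) and Ifit1. Rps27, a ribosomal protein, was at 91.3 FPKM at day 3 and 11.7 FPKM at day 2, and lay between 8.93 and 16.8 FPKM in all other libraries, so the day 3 library alone stood apart. Rps27 has near-identical copies elsewhere in the genome, which makes its value uncertain. Pdgfrl, a protein related to the PDGF receptors, rose to 94.6 FPKM at day 3, against 12.5 FPKM at day 2. Nrep, a small protein of regenerating tissue, rose to 288 FPKM at day 3, against 50.5 FPKM at day 2.

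Among the largest decreases stood RNAs that carry no polyA tail. Rmrp, the RNA of a ribonuclease that trims ribosomal RNA, was at 38.8 FPKM at day 3 and 206.5 FPKM at day 2 (ratio 0.188, 95% counting interval 0.137 to 0.253). Rpph1, the RNA of ribonuclease P, was at 47.4 FPKM at day 3 and 243 FPKM at day 2. Rn45s, the ribosomal RNA precursor, was at 13.5 FPKM at day 3 and 47.4 FPKM at day 2. Rmrp was at 20.7 FPKM in quiescent cells and 18.7 on day 1, and then at 150 on day 4 and 24.0 on day 5, and Rpph1 took the same course with 165 FPKM on day 4 and 27.2 on day 5. High values of both thus stood at days 2 and 4 and low ones at days 3 and 5. The libraries were made from polyA RNA, so these values depend on how much RNA without a tail was carried over, and whether that or the cells set them was not tested. Rn45s did not share the high value of day 4, at 17.9 FPKM on day 4 and 14.1 on day 5. Over days 2 to 5 the macrophage marker sum was low where Rmrp and Rpph1 were high. In the quiescent, day 1, day 7 and day 10 libraries the marker sum and both RNAs were low together. Whether these values are linked was not tested.

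**Figure D5:**
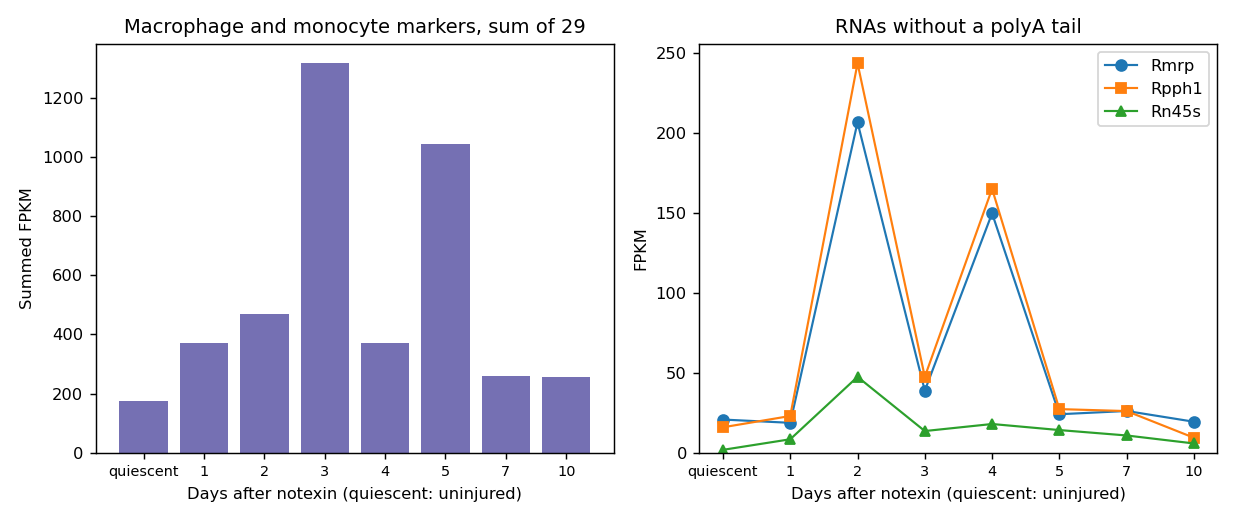
Left, summed FPKM of the 29 macrophage and monocyte markers in each of the 8 libraries (bars, 1 library each). Right, FPKM of 3 RNAs without a polyA tail over the same libraries. The marker sum is high at days 3 and 5, and Rmrp and Rpph1 are high at days 2 and 4.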

How the data were processed

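PolyA RNA of sorted mesenchymal progenitors was sequenced in 8 libraries, 1 per time point. The authors deposited 1 table of FPKM values per gene, and the submitters' processing notes name bcl2fastq, TopHat2, Bowtie2, Cufflinks and the mm10 build, with no versions or settings. FPKM values are not counts, so no count test was used, and with 1 library per time point no test at all was possible. Groups came from the sample labels.

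Rows spanning under 200 bp were set aside, since FPKM of such rows depends on the fragment length model. Rows at 5 FPKM or more in the higher library were compared on log2(FPKM + 1), with Python 3.11.15, pandas 2.3.3, numpy 2.4.6, scipy 1.17.1 and matplotlib 3.10.9. Depth was estimated from whole-fragment steps of low values over 2088 genes. At the estimated depths 75.2% to 81.1% of these values lay within 0.15 of a whole fragment, against 30% by chance. Estimated fragments gave 95% counting intervals of the ratio, which cover counting error only.

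The comparison, the 32 gene lists and the 9 marker lists were chosen with earlier results of these data known. Genes named are the 15 largest increases and decreases at 10 FPKM or more, up to 2 members of each list in each direction, and a fixed set, and other members were chosen after their values were seen. Alternatives were other pseudocounts (0.1 and 5), other filters (1 FPKM, 10 FPKM and none), both scalings, repeated symbols left out, and rows of any length. Promoters came from RefSeq (GRCm38.p6) and were searched on both strands for 6 motifs. Some genes are not reported here.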

Additional observations from a re-analysis of the deposited data

Results flagged for a closer look

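Rows spanning under 200 bp, mostly small RNAs, were kept out of every comparison except the alternative with rows of any length. Of the 56 such rows at 5 FPKM or more in the higher library, 10 were 2-fold higher and 22 were 2-fold lower at day 3, together 57.1%, against 7.74% of the longer rows. They are given here because the main comparison did not use them, and their FPKM depends on the fragment length model.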

How the results depend on the processing

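No paired analysis was possible because each time point has 1 library and nothing pairs them. Leaving out a library was not possible for the same reason. With a pseudocount of 5, which compresses low genes, 185 genes were higher and 156 lower, with 9 of the DNA synthesis list, 12 of the ribosome assembly list, and 0 each of the cyclin and spindle lists lower. The cyclin list had 2 lower genes with a pseudocount of 0.1, a filter of 1 FPKM, or no filter. The spindle list had 0 lower genes under median-ratio scaling and under the same FPKM sum. At the same FPKM sum, 167 genes were lower and 12 collagens higher.

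Medians near 0 changed sign. The MYC network went to 0.0017 with a filter of 1 FPKM or none, to 0.043 under median-ratio scaling and to 0.17 at the same FPKM sum. Immediate early genes went to 0.037 at the same sum, and endothelial and Schwann cell markers to -0.23 and -0.066 with a filter of 10 FPKM. Only genes named by the rules above were followed singly. Among them, those that changed sign were, under median-ratio scaling, Thbs4 (0.048), Gla (0.033), Pmp22 (0.013) and Ly6a (0.012). At the same sum they were Hspg2 (0.044), Thbs4 (0.18), Atp6v0c (0.016), Gla (0.15), Cnp (0.093), Pmp22 (0.14) and Ly6a (0.14). Genes cited for other reasons were not followed, and those slightly below 0, such as Cenpe and Scd1, change sign at the same sum too. The cause of these changes beyond the scaling or filter itself was not tested. Leaving out repeated symbols, or adding the short rows, moved no result past these limits. Median differences also ran with transcript length, from -0.26 among the shortest transcripts to -0.01 among the longest. Counting error limits what can be said of genes near 5 FPKM, and spread between animals is not known.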

Other observations

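Imprinted genes, which are expressed from the copy of 1 parent, stood out after Mest was seen at the top of the increases, so the following list was chosen with its values in view and is given without a test. Of 26 imprinted genes, 15 were compared, and 7 were higher at day 3 and 0 lower, against 4.1% of all genes called higher. The median difference was 0.94, and 14 of the 15 lay above 0. Beside Mest the higher ones were the noncoding RNAs H19, Meg3 and Rian, the growth factor Igf2, the inhibitor Cdkn1c and the zinc finger factor Plagl1. H19 was at 196 FPKM at day 3 and 45.1 FPKM at day 2. Meg3 was at 185 FPKM at day 3 and 56.2 FPKM at day 2, and Rian, from the same cluster on chromosome 12, at 114 and 40.2 FPKM. Plagl1 was at 12.1 FPKM at day 3 and 4.76 FPKM at day 2.

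Later courses differed. Of the 14 genes above 0, 6 were higher on day 4 than on day 3 and 8 were lower, Mest among them at 52.3 FPKM on day 4 and 107 FPKM on day 3. H19 was at 21.9 FPKM in quiescent cells, 18.2 on day 1, 45.1 on day 2, 196 on day 3, 213 on day 4, 592 on day 5, 269 on day 7 and 60.7 on day 10. Rian, Grb10, Igf2r and Peg10 had their highest value of all 8 libraries on day 3. Gnas (853 and 748 FPKM at day 3 and day 2) and Ndn (108 and 101 FPKM) were within 2-fold, and so was Grb10 at 95.2 and 51.4 FPKM. Peg10, at 9.22 and 4.32 FPKM, was not called, as its difference of log2(FPKM + 1) was 0.94. Whether the animals, the sort or the macrophage RNA of the day 3 library has a part in these values was not tested.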
